A study of Mus musculus with 18 samples.

Results

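Estradiol-treated KIKO females were compared with estradiol-treated wild-type females by RNA sequencing of the microdissected arcuate nucleus, with 3 libraries in each group. These are 6 of the 18 libraries of a mouse study that crossed 3 genotypes (WT, KIKO and ERKO) with 2 treatments (estradiol, E2, and oil). Genes entered by level alone: 14831 of the 23235 listed symbols had a mean of at least 0.5 FPKM (a count of fragments adjusted for transcript length and library size) over all 18 libraries. Of these, 57 small RNA genes were set aside and 14774 were tested. KIKO E2 and WT E2 animals were both ovariectomized C57/BL females injected with estradiol benzoate, 250 ng on day 5 after surgery and 1500 ng on day 6. Tissue from both groups was taken 24 h after the second injection, following a fast of 1 h. The matching KIKO oil and WT oil groups received oil on the same days, and ERKO females, labelled as ERα knockout, were treated in the same manner. The labels do not give ages, how the alleles were made, or whether a library is 1 animal, so the p-values measure the spread between libraries.

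ERα, the product of Esr1, is a nuclear receptor that can act on genes by binding DNA at estrogen response elements, or without binding them, through other transcription factors and through signalling at the membrane. In the KIKO mouse, as the name is generally used, a null allele is paired with a knocked-in one whose receptor has lost the ability to bind those elements, so that route is closed and the others are kept. The arcuate nucleus holds kisspeptin, neurokinin B and dynorphin (KNDy) neurons that drive gonadotropin-releasing hormone release, AgRP and POMC neurons that govern feeding, and neurons that control prolactin and growth hormone. Comparing KIKO E2 with WT E2 asks which transcripts differ between these genotypes when estradiol is present in both. By that account KIKO lacks response element binding and also carries a null allele, and the comparison cannot tell these apart.

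Under estradiol, 140 of the 14774 genes differed between KIKO and WT (limma, Benjamini-Hochberg adjusted p under 0.05), which is 0.948% of the genes tested. Most of them were lower in KIKO E2: 110 genes (0.745%) were lower and 30 (0.203%) were higher. The lower genes included the estrogen-induced receptor coregulator Greb1, the progesterone receptor gene Pgr, the oxytocin receptor gene Oxtr, the neuropeptide genes Rln3, Gal and Nts, and the cytokine signalling genes Socs2, Stat5a and Cish. The higher genes were led by Kiss1, which encodes kisspeptin, and included Tacr3, the receptor for neurokinin B. The log2 differences, KIKO E2 over WT E2 on the log2(FPKM + 1) scale, ran between -3.35 and -0.32 among the lower genes and between 0.39 and 2.92 among the higher ones. At least a 2-fold difference was seen for 41 of the lower and 6 of the higher genes. For all 140 genes the 3 KIKO E2 libraries lay entirely above or entirely below the 3 WT E2 libraries, an arrangement found in 3238 (21.9%) of all genes tested.

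**Figure D1:**
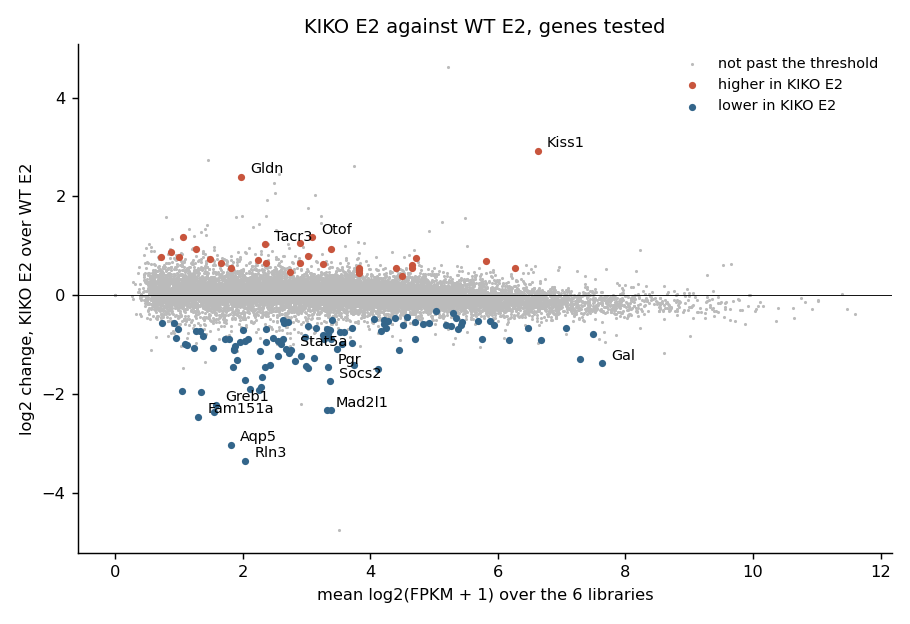
Each point is a gene tested, with its mean log2(FPKM + 1) over the 6 libraries on the horizontal axis and its log2 change, KIKO E2 over WT E2, on the vertical axis. Coloured points are the 30 genes higher and the 110 genes lower in KIKO E2 at an adjusted p under 0.05, and among them the largest fall is -3.35 (Rln3) and the largest rise is 2.92 (Kiss1). A grey point above 2.92 (Cga, 4.62) and another below -3.35 (Atp6v0c-ps2, -4.74) did not pass.

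The 6 libraries correlated with each other at r between 0.975 and 0.990 on the log2 scale, and their FPKM summed to between 421849 in KIKO E2 2 and 483470 in WT E2 1. One library outside the comparison, ERKO E2 3, stood apart, with a median r of 0.935 to the other libraries, and it widens the spread that all groups share in the fit. Without it the count was 596 genes (257 higher and 339 lower), among which were all 140. With 1 of the 6 libraries left out, the count was 83 without KIKO E2 1, 61 without KIKO E2 2, 81 without KIKO E2 3, 81 without WT E2 1, 55 without WT E2 2 and 86 without WT E2 3. Every one of the 140 kept its sign in each of these fits.

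Marker genes of neurons, astrocytes, oligodendrocytes and their precursors, microglia, endothelium, tanycytes, ependyma, choroid plexus and blood had no member past the threshold between KIKO E2 and WT E2. Among all genes tested, 0.948% passed and the median log2 difference was 0.01. Log2 differences were negative for 10 of 10 microglia markers (median -0.11), 9 of 10 of endothelium and pericytes (-0.22) and 8 of 10 of tanycytes (-0.16). Markers of the pituitary and pars tuberalis, which border the dissected tissue, were uneven between libraries. Cga, the common subunit of the pituitary glycoprotein hormones, was at 261, 200 and 116 FPKM in the KIKO E2 libraries, against 0, 0.424 and 294 FPKM in the WT E2 libraries. WT E2 1 and WT E2 2 thus had almost none of it, while WT E2 3 resembled the KIKO E2 libraries. The summed level of the 12 pituitary markers was between 522 and 881 FPKM in KIKO E2 and was 143, 145 and 912 FPKM in WT E2 1, 2 and 3. Of the 12, 2, 2 and 3 were at 0 in KIKO E2 1, 2 and 3, and 6, 5 and 3 in WT E2 1, 2 and 3. Of the 9 tested, all were higher in mean in KIKO E2 (median log2 difference 1.34) and none passed the threshold. Their part in the other results was not tested as such, but the comparison was repeated with WT E2 3 as the only WT E2 library, which has to be assumed to vary like the libraries of the other groups. In that fit 27 genes passed, of which 25 belong to the 140, and all 140 kept their sign. Kiss1 (3.64), Gldn (2.46), Rln3 (-3.03), Greb1 (-2.40), Col24a1 (-2.25), Socs2 (-1.92) and Pgr (-1.64) were among those that passed there. Myc (-1.21), Oxtr (-1.34), Nts (-1.29) and Cckar (-1.16) were among those that did not.

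Esr1 itself was measured at 3.05, 3.89 and 2.85 FPKM in KIKO E2, against 3.45, 5.24 and 5.88 FPKM in WT E2. One KIKO E2 library lay above the lowest WT E2 library, so the groups overlapped. The log2 difference was -0.44 ± 0.32 (SE) with an adjusted p of 0.762. In oil, Esr1 was at 2.91, 4.08 and 3.94 FPKM in KIKO, against 5.38, 6.92 and 11.9 FPKM in WT. That log2 difference was -0.91 ± 0.32 (limma adjusted p 0.329, and 0.0471 without ERKO E2 3 in the fit). Whether the Esr1 level had a part in the other results was not tested. A gene-level FPKM does not show which Esr1 allele was read, so it checks the presence of the transcript and not the label. In ERKO E2 the mean was 1.49 ± 1.13 FPKM (SD, n = 3).

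Among genes past the threshold, the largest falls were in transcripts that the KIKO E2 libraries barely contained. Rln3, the gene of the neuropeptide relaxin-3, was at 0.484, 0 and 0.434 FPKM in KIKO E2, against 11.4, 16.4 and 9.47 FPKM in WT E2. All WT E2 libraries were far above all KIKO E2 libraries, with a log2 difference of -3.35 ± 0.25 (SE) and an adjusted p of 1.64e-06. Aqp5, a water channel, was at 0, 0.190 and 0.557 FPKM in KIKO E2, against 5.78, 14.6 and 8.33 FPKM in WT E2. WT E2 2 was the highest library and the groups did not overlap, the log2 difference being -3.02 ± 0.23 with an adjusted p of 2.05e-06. Fam151a was at or under 0.0869 FPKM in each KIKO E2 library, against 3.56, 6.91 and 4.37 FPKM in WT E2 (log2 difference -2.46 ± 0.17, adjusted p 8.47e-07). Lrrc38, an auxiliary subunit of large-conductance calcium-activated potassium channels, was at 0.363, 0.342 and 0.190 FPKM in KIKO E2, against 3.51, 5.07 and 3.58 FPKM in WT E2 (-1.95 ± 0.14, adjusted p 1.64e-06). In all, 8 of the 110 lower genes had every KIKO E2 library under 0.5 FPKM: Rln3, Fam151a, Greb1, Lrrc38, Col24a1, Rxfp2, Htr1d and 3110079O15Rik, of which Rxfp2, Htr1d and 3110079O15Rik are named here after their values were seen.

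Mad2l1, which encodes a spindle checkpoint protein, was detected in every library of both groups. It was at 3.38, 3.15 and 3.91 FPKM in KIKO E2, against 20.8, 23.7 and 19.8 FPKM in WT E2. The libraries within each group were close to each other and the groups far apart, with a log2 difference of -2.32 ± 0.18 (SE) and an adjusted p of 3.39e-06. Of the 11 mitosis and spindle genes tested it alone passed, beside 0.745% lower over all genes tested. The median of that list was -0.10, beside 0.01 for all genes tested. The other 10 had no call in either direction.

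**Figure D2:**
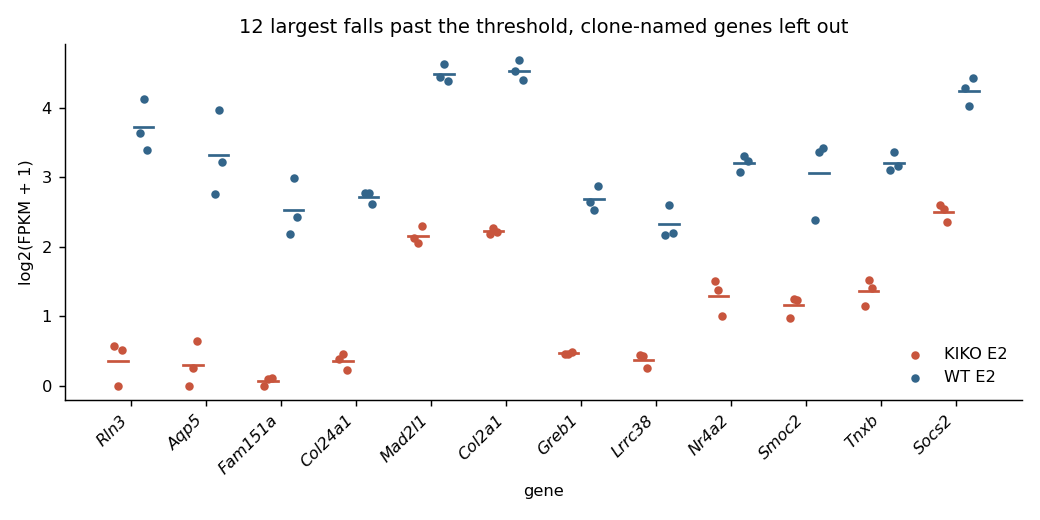
Values in each library of the 12 largest falls among genes past the threshold, clone-named genes such as 3110079O15Rik (-1.94) left out, on the log2(FPKM + 1) scale, with a bar at each group's mean (n = 3 each). For all 12 genes the KIKO E2 points lie below the WT E2 points, and for Rln3, Aqp5, Fam151a, Col24a1, Greb1 and Lrrc38 the KIKO E2 points are near 0.

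Among classical estrogen targets, 7 of 24 tested were lower in KIKO E2 and none was higher, beside 0.745% lower over all genes tested. This list, like the other lists here, was chosen with earlier results of these data known, so its count is a description and not a test. Its median log2 difference was -0.43. Greb1 was at 0.369, 0.373 and 0.406 FPKM in KIKO E2, against 5.24, 4.8 and 6.29 FPKM in WT E2. All KIKO E2 libraries were close to each other and far below all WT E2 libraries, with a log2 difference of -2.21 ± 0.13 (SE) and an adjusted p of 1.75e-07. Pgr, a textbook target through which progesterone acts in the hypothalamus, was at 5.12, 5.47 and 4.76 FPKM in KIKO E2, against 13.9, 15.5 and 18.1 FPKM in WT E2. The highest KIKO E2 library was well under the lowest WT E2 library (-1.45 ± 0.19, adjusted p 0.000619). Oxtr was at 1.57, 2.08 and 2.69 FPKM in KIKO E2, against 6.14, 9.54 and 6.78 FPKM in WT E2 (-1.44 ± 0.21, adjusted p 0.00194), again without overlap.

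Myc, a transcription factor of cell growth, was at 3.28, 3.77 and 3.36 FPKM in KIKO E2, against 11.7, 9.78 and 9.36 FPKM in WT E2 (-1.33 ± 0.16, adjusted p 0.000299). Cckar, a receptor for the satiety peptide cholecystokinin, was at 4.50, 3.05 and 2.81 FPKM in KIKO E2, against 8.71, 9.24 and 8.81 FPKM in WT E2 (-1.17 ± 0.16, adjusted p 0.00112). Both genes showed tight WT E2 values and no overlap. Wnt4, a secreted signalling protein, had a log2 difference of -0.86 ± 0.19 (adjusted p 0.047), and Rasd1, a small G protein induced by steroids, one of -1.11 ± 0.25 (adjusted p 0.0451). With any 1 of the 6 libraries left out neither passed, the adjusted p lying between 0.106 and 0.198 for Wnt4 and between 0.0502 and 0.238 for Rasd1. The 17 other members of the list had no call, among them Ccnd1 (-0.01), Xbp1 (-0.04), Bcl2 (-0.02) and Nrip1 (-0.73), a set that includes coregulator and cell-cycle genes.

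Because the KIKO receptor is defined by its DNA binding, the 250 bases before the transcription start are shown for 3 genes with large falls and for Kiss1, the largest rise past the threshold. They were chosen because they hold a match to the letters described next, and the windows of Aqp5 and Fam151a, with larger falls than Col24a1, hold none. They are RefSeq promoter sequences of build GRCm38.p6, each read along the strand of its gene, with the letters AGGTCA, or TGACCT for the other strand, in capitals. AGGTCA is one arm of the palindromic estrogen response element.
Greb1: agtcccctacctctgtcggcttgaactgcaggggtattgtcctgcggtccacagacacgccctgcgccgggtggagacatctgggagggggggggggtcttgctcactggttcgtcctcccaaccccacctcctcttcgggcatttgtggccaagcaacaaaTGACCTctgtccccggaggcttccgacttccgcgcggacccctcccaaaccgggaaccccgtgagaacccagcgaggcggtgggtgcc
Rln3: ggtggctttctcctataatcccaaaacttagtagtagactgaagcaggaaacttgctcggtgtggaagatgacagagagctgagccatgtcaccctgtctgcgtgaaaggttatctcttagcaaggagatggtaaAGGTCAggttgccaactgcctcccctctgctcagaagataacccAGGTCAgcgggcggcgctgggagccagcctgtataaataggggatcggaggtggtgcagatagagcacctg
Col24a1: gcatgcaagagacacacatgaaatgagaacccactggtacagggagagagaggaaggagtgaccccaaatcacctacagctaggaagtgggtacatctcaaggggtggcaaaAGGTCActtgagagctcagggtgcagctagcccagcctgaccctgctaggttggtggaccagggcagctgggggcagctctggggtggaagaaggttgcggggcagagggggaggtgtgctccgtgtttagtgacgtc
Kiss1: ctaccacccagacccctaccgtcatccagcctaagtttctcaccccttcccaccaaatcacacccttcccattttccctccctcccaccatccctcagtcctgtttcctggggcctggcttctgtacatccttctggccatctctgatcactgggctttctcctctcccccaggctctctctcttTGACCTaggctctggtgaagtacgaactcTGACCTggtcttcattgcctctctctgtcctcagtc
The Greb1 window shown is chr12:16800887-16801136 on the minus strand, with 1 match that begins 88 bases before the start, and a second listed Greb1 start, with the window chr12:16757240-16757489, has none. The Rln3 window is chr8:84044980-84045229 on the minus strand, with matches at 115 and 71 bases. The Col24a1 window is chr3:145292222-145292471 on the plus strand, with a match at 138 bases. The Kiss1 window is chr1:133326962-133327211 on the plus strand, with matches at 65 and 36 bases. Promoters were listed for 80 of the 110 lower genes, 18 of the 30 higher genes and 11415 of all genes tested. AGGTCA on either strand was in the window of 14 of the 80 (17.5%), 1 of the 18 (5.56%) and 13.1% of all. The full palindrome GGTCANNNTGACC was in the window of none of them, and in 21 of the 32851 promoters listed (0.0639%). The AP-1 motif TGANTCA was in 7.5%, 11.1% and 5.45%, and the Sp1 motif GGGCGG in 68.8%, 55.6% and 62.8%, each on both strands. A match is a description of these letters only, and response elements outside the windows were not searched.

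Several genes of hypothalamic neuropeptides and their receptors differed. Gal, which encodes galanin, was at 143, 98.7 and 128 FPKM in KIKO E2, against 323, 344 and 290 FPKM in WT E2. All KIKO E2 libraries were below all WT E2 libraries, with a log2 difference of -1.38 ± 0.28 (SE) and an adjusted p of 0.0288. Its receptor gene Galr1 went the other way, at 2.02, 1.5 and 1.34 FPKM in KIKO E2, against 0.521, 0.460 and 0.606 FPKM in WT E2 (0.77 ± 0.15, adjusted p 0.016). Galanin transcript was thus lower and Galr1 transcript higher in the same 3 KIKO E2 libraries. The Gal call was lost with any 1 library left out (adjusted p between 0.0549 and 0.174), and that of Galr1 without KIKO E2 1 (0.101), KIKO E2 2 (0.0599), WT E2 1 (0.0659) or WT E2 2 (0.0876).

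Nts, the gene of neurotensin, was at 7.52, 6.10 and 8.12 FPKM in KIKO E2, against 23.5, 20.1 and 19.0 FPKM in WT E2. The groups were apart by more than 2-fold at their nearest libraries, with a log2 difference of -1.41 ± 0.22 (SE) and an adjusted p of 0.00425. Rxfp2, a relaxin family receptor gene, and Htr1d, a serotonin receptor gene, both named after their values were seen, had log2 differences of -0.85 and -0.56 (adjusted p 0.0378 and 0.0431). Both were low in every library, under 0.5 FPKM in KIKO E2 and at most 1.90 FPKM in WT E2. The Rxfp2 call was lost with any 1 library left out (adjusted p 0.0854 to 0.166), and the Htr1d call with any except WT E2 3 left out (0.0885 to 0.186 without each of the other 5).

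Genes of growth hormone, prolactin and dopamine control held 6 lower and 1 higher call among 26 tested, beside 0.745% lower and 0.203% higher over all genes tested. Their median log2 difference was -0.23, and this list too was chosen with earlier results of these data known. Socs2, a feedback inhibitor of growth hormone signalling, was at 5.06, 4.84 and 4.10 FPKM in KIKO E2, against 18.4, 15.2 and 20.4 FPKM in WT E2. The highest KIKO E2 library was at less than 0.5 times the lowest WT E2 library (-1.74 ± 0.17 SE, adjusted p 3e-05). Stat5a, a transcription factor of the prolactin and growth hormone receptors, was at 3.13, 3.59 and 4.10 FPKM in KIKO E2, against 6.99, 10.3 and 9.54 FPKM in WT E2 (-1.10 ± 0.19, adjusted p 0.00698, and 0.0567 without WT E2 2). Cish, a second feedback inhibitor in the same family as Socs2, had a log2 difference of -0.84 ± 0.18 (adjusted p 0.0426), and passed without KIKO E2 1 (0.0323) but not without any of the other 5 libraries (0.107 to 0.22). Nr4a2, an orphan nuclear receptor needed for dopamine neuron identity, was at 1.84, 1.60 and 1.00 FPKM in KIKO E2, against 7.43, 8.92 and 8.39 FPKM in WT E2 (-1.91 ± 0.22, adjusted p 0.000203).

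The enzyme and hormone genes of the same systems did not pass. Th, the rate-limiting enzyme of dopamine synthesis, was at 65.9, 49.9 and 59.2 FPKM in KIKO E2, against 104, 89.5 and 66.5 FPKM in WT E2 (-0.55 ± 0.20, adjusted p 0.322). Ghrh, the growth hormone-releasing hormone gene, was at 108, 76.5 and 129 FPKM in KIKO E2, against 188, 174 and 164 FPKM in WT E2 (-0.77 ± 0.26, adjusted p 0.282). Sst, the somatostatin gene, had a log2 difference of -0.59 ± 0.21 (adjusted p 0.3), and Prlr, the prolactin receptor gene, one of -0.37 ± 0.18 (adjusted p 0.58). Without ERKO E2 3 in the fit the adjusted p was 0.00495 for Ghrh, 0.026 for Sst and 0.049 for Th. With that library in the fit, library weights also called Ghrh, Sst and Th. A length and GC correction called Ghrh and Sst, and quantile normalization called Sst. Whether these genes pass thus depends on the settings of the fit. In the KIKO E2 and WT E2 libraries themselves Ghrh, Sst and Th did not overlap, an arrangement found in 21.9% of all genes tested. For Th the nearest libraries were almost equal, at 65.9 FPKM in KIKO E2 and 66.5 FPKM in WT E2.

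Kiss1 was the largest rise among genes past the threshold. It was at 280, 253 and 282 FPKM in KIKO E2, against 34.8, 58.3 and 20.9 FPKM in WT E2. The lowest KIKO E2 library was more than 4 times the highest WT E2 library, and the log2 difference was 2.92 ± 0.32 (SE) with an adjusted p of 0.000107. Tacr3 was at 6.92, 6.09 and 5.94 FPKM in KIKO E2, against 2.00, 3.10 and 2.70 FPKM in WT E2. Those groups did not overlap either (1.03 ± 0.21, adjusted p 0.0233), although with any 1 library left out the adjusted p was between 0.0547 and 0.121. The 2 other KNDy peptide genes did not pass: Tac2, which encodes neurokinin B, was at 840, 583 and 736 FPKM in KIKO E2, against 468, 628 and 532 FPKM in WT E2 (0.40 ± 0.24, adjusted p 0.68). Pdyn, which encodes dynorphin, was at 116 FPKM in each KIKO E2 library, against 66.9, 97.2 and 69.3 FPKM in WT E2 (0.59 ± 0.24, adjusted p 0.445, and 0.0457 without ERKO E2 3 in the fit). Tac2 libraries overlapped between the groups and Pdyn libraries did not. Of 21 genes of KNDy neurons and gonadotropin control tested, Kiss1 and Tacr3 passed and no other, beside 0.203% higher over all genes tested. The list's median was 0.14.

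**Figure D3:**
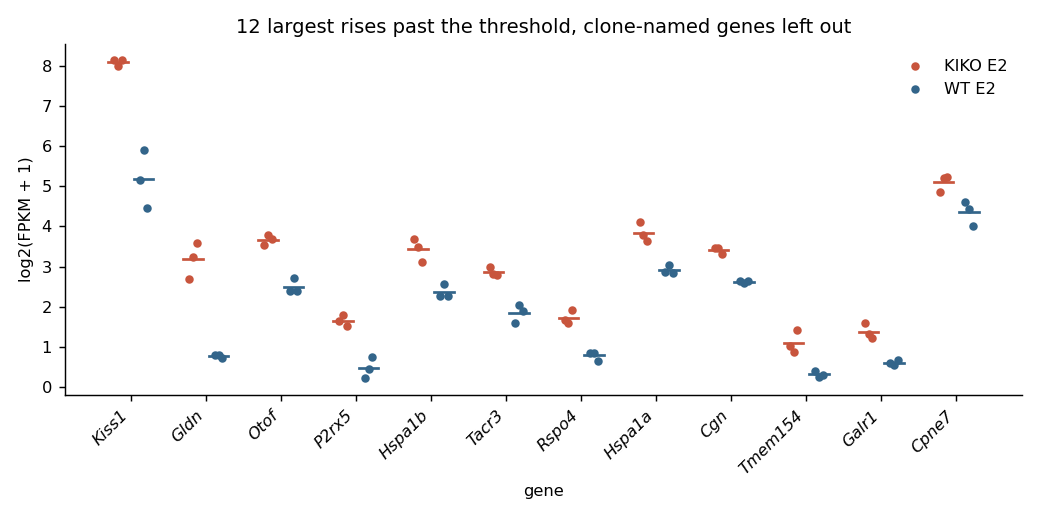
Values in each library of the 12 largest rises among genes past the threshold, clone-named genes left out, on the log2(FPKM + 1) scale, with a bar at each group's mean (n = 3 each). The KIKO E2 points lie above the WT E2 points for all 12 genes, by most for Kiss1 (2.92) and Gldn (2.40).

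Gldn, which encodes the adhesion protein gliomedin and stands in the list of ventromedial nucleus markers, was the second largest of those rises. It was at 5.51, 8.46 and 11.1 FPKM in KIKO E2, against 0.738, 0.750 and 0.646 FPKM in WT E2. KIKO E2 libraries varied about 2-fold among themselves but all were far above WT E2 (2.40 ± 0.22 SE, adjusted p 1.48e-05). Nr5a1, the defining transcription factor of the neighbouring ventromedial nucleus, was at 6.43, 12.4 and 5.5 FPKM in KIKO E2, against 6.26, 6.18 and 2.01 FPKM in WT E2 (0.68, adjusted p 0.665). Over the 10 markers of that nucleus the summed level was between 63.8 and 105 FPKM in KIKO E2 and between 46.6 and 75.5 FPKM in WT E2, with none of them at 0. The list held 1 higher call (Gldn) and 1 lower call (Cbln2, -0.88, adjusted p 0.0397), beside 0.203% higher and 0.745% lower over all genes tested. Its median log2 difference was 0.33, and its part in the Gldn result was not tested. The Cbln2 call was lost with any 1 library left out (adjusted p 0.0557 to 0.22).

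Otof, the calcium sensor otoferlin of vesicle release, was at 10.5, 12.8 and 11.9 FPKM in KIKO E2, against 4.24, 5.55 and 4.21 FPKM in WT E2 (1.17 ± 0.19 SE, adjusted p 0.00498). P2rx5, an ATP-gated channel subunit, was at 2.13, 2.46 and 1.88 FPKM in KIKO E2, against 0.182, 0.360 and 0.690 FPKM in WT E2 (1.17 ± 0.19, adjusted p 0.00507). Rspo4, a secreted enhancer of Wnt signalling, was at 2.19, 2.01 and 2.77 FPKM in KIKO E2, against 0.816, 0.817 and 0.580 FPKM in WT E2 (0.93 ± 0.15, adjusted p 0.00493). For each of the 3 genes the KIKO E2 libraries were more than 1.5 times the WT E2 libraries at the nearest points, and each passed with any 1 of the 6 libraries left out. With WT E2 3 as the only WT E2 library, the log2 differences were 1.29 (Otof), 0.90 (P2rx5) and 1.07 (Rspo4). None of these genes was past the threshold in that fit.

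The other large rises were less stable with 1 library left out. The stress chaperone genes Hspa1a and Hspa1b are near-identical copies whose reads can be split between them, so their separate values are uncertain. Hspa1a was at 16.2, 12.9 and 11.3 FPKM in KIKO E2, against 6.27, 7.17 and 6.19 FPKM in WT E2 (0.93 ± 0.17, adjusted p 0.014). Hspa1b had a log2 difference of 1.06 ± 0.21 (adjusted p 0.0254). They were the 2 calls among 18 heat shock chaperones, whose median was 0.08, beside 0.203% higher over all genes tested. Hspa1a did not pass without KIKO E2 1 (0.0899), KIKO E2 2 (0.0578), WT E2 1 (0.0676) or WT E2 3 (0.0683), and Hspa1b passed only without KIKO E2 3 (0.024). Cgn, which encodes the tight junction protein cingulin, had a log2 difference of 0.79 ± 0.16 (adjusted p 0.0311), and Tmem154 one of 0.78 ± 0.17 (adjusted p 0.0451). Both failed with any 1 library left out, with adjusted p between 0.077 and 0.15 for Cgn and between 0.0635 and 0.238 for Tmem154. Cpne7, a calcium-dependent membrane-binding protein, was at 27.8, 35.7 and 36.8 FPKM in KIKO E2, against 23.3, 20.6 and 15.0 FPKM in WT E2 (0.75 ± 0.15, adjusted p 0.0193), and failed without KIKO E2 2 (0.126), KIKO E2 3 (0.107), WT E2 2 (0.0625) or WT E2 3 (0.089).

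Of 31 genes of energy balance tested, Cckar was the 1 called, beside 0.745% lower over all genes tested. The list's median log2 difference was -0.10. Agrp, the gene of the appetite-raising peptide of AgRP neurons, was at 115, 106 and 260 FPKM in KIKO E2, against 337, 266 and 255 FPKM in WT E2 (-0.94 ± 0.33 SE, adjusted p 0.29). KIKO E2 3 stood with the WT E2 libraries, while KIKO E2 1 and KIKO E2 2 were lower. Npy, expressed in the same neurons, was also highest in KIKO E2 3 among the KIKO E2 libraries, at 513, 610 and 1098 FPKM in KIKO E2, against 1172, 849 and 1020 FPKM in WT E2 (-0.52 ± 0.28, adjusted p 0.632). Pomc, the precursor of melanocortins, had a log2 difference of -0.24 ± 0.25 (adjusted p 0.824), and Cartpt one of 0.24 ± 0.29 (adjusted p 0.861). In bulk tissue, fewer cells of a type and less RNA in each cell cannot be told apart.

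Nuclear receptors and coregulators held 2 lower calls among 24 tested, Nr4a2 and Pgr, beside 0.745% lower over all genes tested, with a median of 0.10. Neurotrophin genes held 2 lower calls among 11 tested, again beside 0.745% over all genes. Ngfr, the low-affinity neurotrophin receptor gene, was at 1.60, 1.07 and 1.5 FPKM in KIKO E2, against 4.26, 5.34 and 5.18 FPKM in WT E2, without overlap (-1.31 ± 0.17 SE, adjusted p 0.000548). Gfra1, a receptor for glial cell line-derived neurotrophic factor, was at 8.35, 9.9 and 10 FPKM in KIKO E2, against 20.5, 33.7 and 32.6 FPKM in WT E2 (-1.49 ± 0.31, adjusted p 0.0288). KIKO E2 values were close together and WT E2 values wider, and the Gfra1 call was kept without WT E2 1 (0.0289) but lost without each of the other 5 libraries (0.0839 to 0.165). Ier2 was the only call among 20 immediate early genes, beside 0.745% lower over all genes. It was at 4.39, 2.72 and 3.77 FPKM in KIKO E2, against 7.35, 7.87 and 6.96 FPKM in WT E2 (-0.87 ± 0.15, adjusted p 0.00792, 0.0578 without KIKO E2 2 and 0.0573 without WT E2 2).

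Potassium channel genes and GABA and glutamate genes each held 1 higher and 1 lower call, among 24 and 34 tested. Over all genes tested, 0.203% were higher and 0.745% lower. Grik1, a kainate receptor subunit, was at 6.55, 6.40 and 5.42 FPKM in KIKO E2, against 11.4, 12.1 and 13 FPKM in WT E2 (-0.89 ± 0.14 SE, adjusted p 0.00436). The lowest WT E2 library for Grik1 was more than 1.5 times the highest KIKO E2 library. Gria3, an AMPA receptor subunit, was the other call among 34 GABA and glutamate genes, with a log2 difference of 0.55 ± 0.11 (adjusted p 0.03), lost without KIKO E2 2 (0.18), KIKO E2 3 (0.0718), WT E2 2 (0.147) or WT E2 3 (0.13). Among 24 potassium channel genes, Abcc8, the sulfonylurea receptor subunit, was at 4.91, 5.29 and 4.86 FPKM in KIKO E2, against 2.74, 2.88 and 2.42 FPKM in WT E2 (0.71 ± 0.15, adjusted p 0.0339). Kcnk2, a background potassium channel gene, was at 25.0, 21.8 and 25.2 FPKM in KIKO E2, against 36.2, 36.4 and 34.5 FPKM in WT E2 (-0.56 ± 0.10, adjusted p 0.0132). The Abcc8 call was lost with any 1 library left out (adjusted p 0.092 to 0.173), and that of Kcnk2 without KIKO E2 2 (0.0985), WT E2 1 (0.0626) or WT E2 2 (0.0766).

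Extracellular matrix genes held 3 lower calls and 1 higher call among 41 tested, beside 0.745% lower and 0.203% higher over all genes tested, with a median of 0.12. Col24a1, a fibrillar collagen gene, was at 0.314, 0.381 and 0.174 FPKM in KIKO E2, against 5.82, 5.85 and 5.10 FPKM in WT E2 (-2.35 ± 0.14 SE, adjusted p 1.75e-07). Tnxb, which encodes tenascin X, was at 1.21, 1.89 and 1.65 FPKM in KIKO E2, against 7.58, 9.27 and 7.96 FPKM in WT E2 (-1.85 ± 0.17, adjusted p 1.54e-05). Smoc2, a secreted calcium-binding matrix protein, was at 0.976, 1.38 and 1.36 FPKM in KIKO E2, against 4.23, 9.33 and 9.65 FPKM in WT E2 (-1.90 ± 0.29, adjusted p 0.00343). WT E2 1 was the lowest WT library for Smoc2, yet still above every KIKO E2 library. Whether reads were counted by strand is not given in the sources used here, so transcripts that overlap on opposite strands, as at Tnxb, cannot be told apart.

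Col2a1, a second fibrillar collagen gene outside that list, was at 3.55, 3.81 and 3.65 FPKM in KIKO E2, against 22, 24.7 and 20.0 FPKM in WT E2 (-2.31 ± 0.21, adjusted p 1.43e-05). Its KIKO E2 libraries differed among themselves by less than 0.3 FPKM. Col5a1 was the 1 higher matrix call, at 2.27, 2.85 and 2.67 FPKM in KIKO E2, against 1.29, 1.05 and 1.16 FPKM in WT E2 (0.73 ± 0.16, adjusted p 0.0491), lost with any 1 library left out (0.0972 to 0.249). Ephb3, a receptor for the ephrin guidance cues, was at 2.88, 2.75 and 3.30 FPKM in KIKO E2, against 1.44, 1.62 and 1.46 FPKM in WT E2 (0.66 ± 0.11, adjusted p 0.00513). It was the single call among 33 guidance genes, beside 0.203% higher over all genes tested. Among 28 exocytosis genes, 2 synaptotagmin genes differed in opposite directions, Syt6 with -0.65 ± 0.12 (adjusted p 0.0133) and Syt12 with 0.48 ± 0.11 (adjusted p 0.0451). Over all genes tested, 0.745% were lower and 0.203% higher. The Syt6 call was lost without KIKO E2 1 (0.063), KIKO E2 2 (0.0693) or WT E2 2 (0.092), and the Syt12 call with any 1 library left out (0.101 to 0.238).

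Some lists had no call, beside 0.948% of all genes tested called in either direction. The median log2 difference of all genes tested was 0.01. None of 16 prohormone processing and granin genes passed, and the smallest p there was that of Scg2, a granin gene, at 480, 424 and 291 FPKM in KIKO E2, against 568, 694 and 822 FPKM in WT E2 (-0.82 ± 0.20, adjusted p 0.0762, and 0.0209 without ERKO E2 3 in the fit). The 25 interferon and MHC class I genes tested had positive log2 differences in all cases, from 0.03 to 0.78 with a median of 0.31, and none passed, the smallest p being that of Irf1 (0.41 ± 0.15, adjusted p 0.31). Under quantile normalization and under median scaling, 24 of those 25 were positive. Respiratory chain genes had a median of -0.22, with 28 of 29 negative and no call (Ndufa1, -0.51 ± 0.24, adjusted p 0.564, and 0.0104 without ERKO E2 3). That median was -0.06 after quantile normalization, -0.26 after median scaling and -0.14 with a length and GC correction. In these 5, 1 and 1 of the 29 respiratory chain genes were positive. Circadian clock genes had a median of 0.19 and no call among 19 (Per3, 0.49 ± 0.16, adjusted p 0.271, and 0.0256 without ERKO E2 3), and the 13 IGF system genes had a median of 0.15 and no call (Igfbpl1, -0.52 ± 0.20, adjusted p 0.385).

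Whether the genotypes already differed without estradiol was read from the KIKO oil and WT oil libraries, which share no library with the estradiol comparison. In oil, 2 genes passed (0.0135% of those tested), Lhfpl1 and Timp1, both lower in KIKO oil and neither among the 140. At an unadjusted p under 0.05 there were 1485 genes, and without ERKO E2 3 in the fit 268 passed after adjustment. Over the 110 genes lower in KIKO E2, the median log2 difference was -0.88 under estradiol and -0.16 in oil. Over the 30 higher genes it was 0.70 under estradiol and 0.21 in oil. The sign in oil matched that under estradiol for 84 of the 110 lower genes (76.4%) and 23 of the 30 higher genes (76.7%), beside 64.9% of all genes tested.

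**Figure D4:**
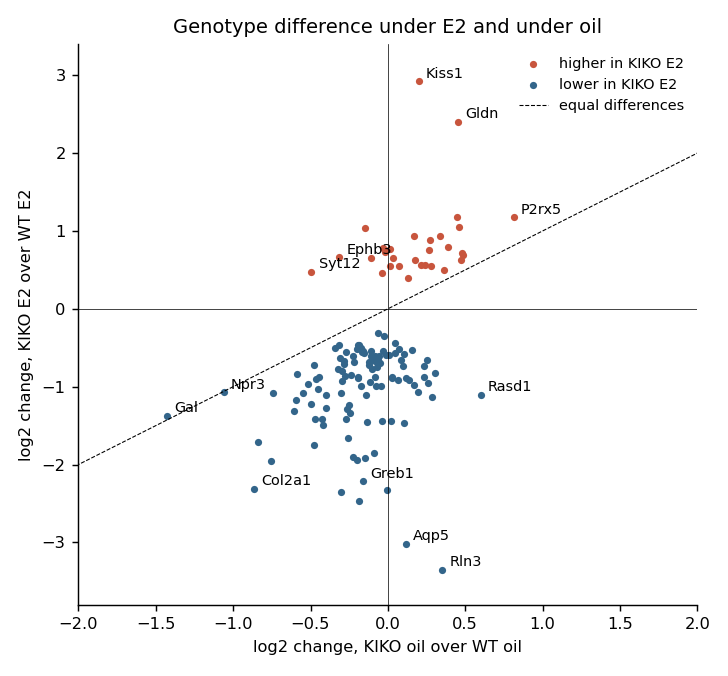
Each of the 140 genes is placed by its log2 change in oil, KIKO oil over WT oil (horizontal), and under estradiol, KIKO E2 over WT E2 (vertical), with a dashed line where both are equal. Most genes lie near 0 in oil, Rln3 and Kiss1 are far from the line, and Gal and Npr3 lie on it.

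Most of the largest differences were small in oil. Kiss1 averaged 504 ± 138 FPKM in KIKO oil and 433 ± 81.2 FPKM in WT oil (SD, n = 3 each), a log2 difference of 0.20 ± 0.32 (SE). Greb1 averaged 0.310 ± 0.0779 FPKM in KIKO oil and 0.475 ± 0.222 FPKM in WT oil. Rln3 averaged 0.299 ± 0.304 FPKM in KIKO oil and was listed at 0 in all 3 WT oil libraries. Without estradiol, Kiss1 was thus high, and Greb1 and Rln3 low, in both genotypes. The difference of the differences (that under estradiol minus that in oil) passed the threshold for 20 genes, 0.135% of those tested. They include Kiss1 (2.72 ± 0.45, adjusted p 0.019), Gldn (1.95), Rln3 (-3.70), Mad2l1 (-2.32) and Greb1 (-2.05).

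Gal behaved otherwise. It averaged 144 ± 17.8 FPKM in KIKO oil and 392 ± 76.4 FPKM in WT oil (SD, n = 3 each), a log2 difference of -1.43 ± 0.28 (SE), beside -1.38 under estradiol. The difference of these differences was 0.05 with an adjusted p of 0.999. In oil the adjusted p of Gal was 0.118, and 0.00217 without ERKO E2 3 in the fit. Npr3, the clearance receptor gene for natriuretic peptides, chosen after its values were seen, had log2 differences of -1.07 under estradiol and -1.06 in oil, where the adjusted p was 0.111, and 0.017 without ERKO E2 3. Its oil values are less certain, since Npr3 in WT oil 1 and WT oil 2 carries a FAIL status from Cuffdiff. Its estradiol call was kept without WT E2 1 (0.0179) and lost without each of the other 5 libraries (0.063 to 0.102). P2rx5 had log2 differences of 1.17 under estradiol and 0.81 in oil, and Col2a1 of -2.31 and -0.87. Among the 140, 12 lower and 5 higher genes had an oil difference of the same sign and at least 0.5 times as large as that under estradiol. Over all 14774 genes tested the count was 7222. The 140 were chosen on a large estradiol difference, so these counts are not directly comparable.

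The ERKO E2 libraries come from females labelled as lacking ERα, although Esr1 transcript was still counted in them, as given above. The comparison of ERKO E2 with WT E2 uses the same 3 WT E2 libraries, so its values are given only beside those of KIKO E2. It called 192 genes (1.3% of those tested). The 110 and 30 genes were chosen on KIKO E2 and WT E2, and their levels are a description. Over the 110 lower genes the median level, as log2(mean FPKM + 1), was 2.41 in KIKO E2, 2.44 in ERKO E2 and 3.66 in WT E2, and in oil it was 2.49 in KIKO, 2.51 in ERKO and 2.80 in WT. Over the 30 higher genes it was 3.43 in KIKO E2, 3.17 in ERKO E2 and 2.53 in WT E2, and in oil 3.44 in KIKO, 3.14 in ERKO and 3.14 in WT. Col24a1 averaged 0.290 ± 0.105 FPKM in KIKO E2, 0.287 ± 0.155 FPKM in ERKO E2 and 5.59 ± 0.425 FPKM in WT E2 (SD, n = 3 each). Pgr averaged 5.12 ± 0.357, 3.89 ± 1.33 and 15.8 ± 2.11 FPKM in KIKO E2, ERKO E2 and WT E2. For the lower genes the KIKO E2 and ERKO E2 medians were thus within 0.04 of each other on the log2 scale, and both were more than 1 below the WT E2 median.

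**Figure D5:**
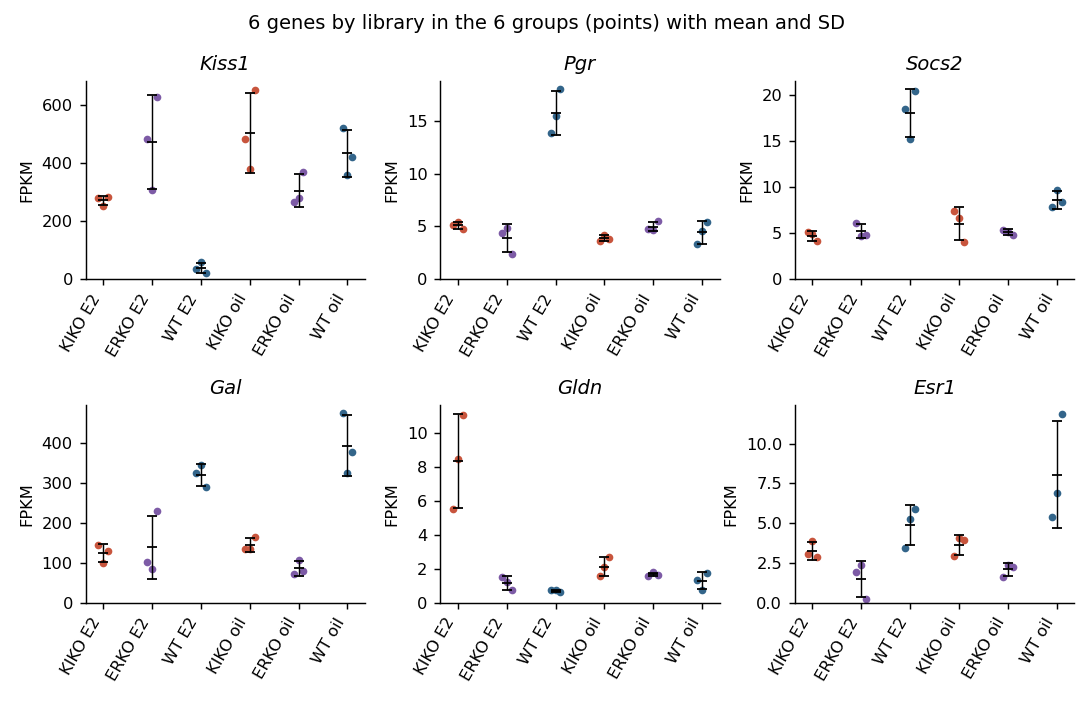
FPKM of Kiss1, Pgr, Socs2, Gal, Gldn and Esr1 in each library of the 6 groups, with the mean and SD (n = 3 each). Pgr and Socs2 are high in WT E2 alone, Kiss1 is low in WT E2 alone, Gal is high in both WT groups, and Gldn is high in KIKO E2 alone.

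Tested directly, KIKO E2 and ERKO E2 differed for 2 of the 14774 genes (0.0135%), Gldn and 6330403A02Rik, both higher in KIKO E2. At an unadjusted p under 0.05 there were 475 genes, a smaller share of those tested than the 0.05 that evenly spread p-values would give. The 2 calls thus do not show that the other genes were at equal levels in KIKO E2 and ERKO E2. Gldn averaged 8.34 ± 2.78 FPKM in KIKO E2, 1.16 ± 0.408 FPKM in ERKO E2 and 0.711 ± 0.0571 FPKM in WT E2 (SD, n = 3 each), and its log2 difference of KIKO E2 over ERKO E2 was 2.08 with an adjusted p of 0.000823. In oil it averaged 2.12 ± 0.570 FPKM in KIKO, 1.66 ± 0.104 FPKM in ERKO and 1.29 ± 0.492 FPKM in WT. Gldn was therefore at its highest in KIKO E2 among the 6 groups, as the plot of the 6 groups shows. For Kiss1 the log2 difference of KIKO E2 over ERKO E2 was -0.74 (adjusted p 0.788), the means being 272 ± 16.1 FPKM in KIKO E2 and 472 ± 161 FPKM in ERKO E2. The spread of Kiss1 between libraries was 10 times wider in ERKO E2 than in KIKO E2. Without ERKO E2 3 in the fit the count remained 2.

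Read within a genotype, estradiol and oil differed for 1 gene in KIKO, Gldn (0.00677% of those tested, with 140 genes at an unadjusted p under 0.05), and for 116 genes in WT (0.785%). Each of these comparisons shares libraries with that of KIKO E2 and WT E2. The unadjusted count in KIKO is a smaller share of the genes tested than the 0.05 that evenly spread p-values would give. The single call there does not show that estradiol and oil gave equal levels in KIKO. Socs2 averaged 4.67 ± 0.505 FPKM in KIKO E2 and 6.02 ± 1.75 FPKM in KIKO oil, and 18 ± 2.62 FPKM in WT E2 and 8.58 ± 0.990 FPKM in WT oil (SD, n = 3 each). Tacr3 averaged 6.32 ± 0.525 FPKM in KIKO E2 and 11.4 ± 2.31 FPKM in KIKO oil, and 2.60 ± 0.554 FPKM in WT E2 and 13.2 ± 4.8 FPKM in WT oil. Tacr3 was thus lower with estradiol than with oil in the means of both genotypes, and by less in KIKO, although the difference of the differences had an adjusted p of 0.214 (1.18 on the log2 scale).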

How the data were processed

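The deposited tables give FPKM per gene and library; per the submitters' processing notes the authors used TopHat2 2.0, Cuffdiff and the mm10 build. The parameters, the annotation and the read counts are not given in the sources used here, so the depth of each library is unknown. From the width of the FPKM confidence bounds in these tables, relative depth among the 6 libraries was estimated at 0.847 (WT E2 2) to 1.35 (KIKO E2 2). Only about 60% of the fragment counts implied by those bounds came out whole (within 0.02), so no count test was run. Rows were summed by symbol (23699 entries, 23235 symbols), and symbols averaging 0.5 FPKM or more over 18 libraries were kept. limma 3.58.1 (R 4.3.3; trended, robust variances) was fitted to log2(FPKM + 1) in all 18 libraries with 6 group means and 12 residual degrees of freedom. Two-sided p-values were adjusted over 14774 genes by the Benjamini-Hochberg method. A pseudocount of 1 understates differences of genes at low FPKM. Simulated data for this comparison over 14774 genes recovered 79% of 100 genes changed by 1 on the log2 scale and 99% of 100 changed by 2, with 16 unchanged genes called. Changes were placed only in genes with a mean log2(FPKM + 1) above 1. The noise was normal with 1 SD per gene for all libraries. The rates thus do not cover genes near 0 FPKM, an outlying library or uneven pituitary content.

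Genes were named by rule: Esr1, the 12 largest rises and 12 largest falls past the threshold without overlap between groups (clone-named genes, such as those ending in Rik, left out), up to 4 called members of each gene list, an arcuate panel of 14 genes, and 1 member with the smallest p of each list with no call. Genes named outside it were chosen after their values were seen. The members and lists were chosen with earlier results of these data known. Alternatives changed the normalization, filter, pseudocount, libraries and variance model. Promoters came from RefSeq (GRCm38.p6). One called gene of the naming rule is not reported here.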

Additional observations from a re-analysis of the deposited data

Results flagged for a closer look

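For 15 of the genes named here, the difference between KIKO and WT under estradiol differed from that in oil in the test of the difference itself (limma, adjusted p under 0.05, over 14774 genes). Values are log2 differences of differences, KIKO over WT under E2 minus KIKO over WT in oil, each from 3 libraries in each of the 4 groups. Positive values, meaning a higher KIKO level under estradiol than in oil relative to WT, were found for Kiss1 (2.72, adjusted p 0.019), Gldn (1.95, 0.0146), Ephb3 (0.98, 0.014) and Syt12 (0.97, 0.014). Among genes of secreted or matrix proteins, negative values were found for Rln3 (-3.70), Col24a1 (-2.05) and Tnxb (-1.76). Among channels and channel subunits they were found for Aqp5 (-3.13), Lrrc38 (-1.19) and Accn4 (-1.46), and among nuclear proteins for Greb1 (-2.05), Nr4a2 (-1.76), Mad2l1 (-2.32) and Phf21b (-1.57). Fam151a was at -2.27. Accn4 and Phf21b are named after their values were seen.

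Ephb3 and Syt12 changed sign between treatments. Ephb3 was 0.66 higher in KIKO E2 than in WT E2 and -0.31 in KIKO oil over WT oil, and Syt12 was 0.48 higher under estradiol and -0.49 in oil. Neither oil difference passed the threshold (adjusted p 0.306 for Ephb3 and 0.141 for Syt12), but without ERKO E2 3 in the fit that of Syt12 did (0.0299).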

How the results depend on the processing

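Of the 140 genes, all kept their sign in every alternative they entered. The count was 596 without ERKO E2 replicate 3, 1030 with library weights and 247 with a length and GC correction, and 27 when both WT E2 libraries with few pituitary transcripts were left out. With 1 of the 6 libraries left out it was 55 to 86. With only the 6 libraries it was 204, and under the other alternatives 111 to 163. The count of the difference of differences, 20, was 42 without ERKO E2 replicate 3, 59 with library weights, 39 with the length and GC correction, 31 without the filter, 9 at a pseudocount of 0.1, 8 without both WT E2 libraries, and 7 (without KIKO oil replicate 2) to 25 (without WT oil replicate 3) with 1 library left out. Without ERKO E2 replicate 3, KIKO oil against WT oil had 268 calls in place of 2, ERKO E2 against WT E2 1286 in place of 192, and E2 against oil in WT 397 in place of 116. The cause was not tested. The length and GC correction, the removal of genes with a failed Cuffdiff status, the removal of both WT E2 libraries and, for comparisons other than the 2 main ones, that of ERKO E2 3 were chosen after seeing the data. Of 42 called genes named by rule, 25 stayed past the threshold in all 6 leave-one-out fits and 16 in every alternative. With the replicate number as a block the count was 111, 108 of them shared. Same-numbered KIKO E2 and WT E2 libraries did not deviate together from their group means (r of -0.06, -0.08 and -0.24). The deviations within a group sum to 0, so these values cannot show whether the number pairs libraries.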

Other observations

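Some single genes outside the lists also differed between KIKO E2 and WT E2. They were chosen after their values were seen, and other members of their families were not counted. The laminin β gene Lamb3 was at 1.53, 2.11 and 1.72 FPKM in KIKO E2, against 7.26, 8.87 and 7.19 FPKM in WT E2 (log2 difference -1.65, limma adjusted p 0.000548), and its relative Lamb1 was at 2.14, 2.38 and 2.34 FPKM in KIKO E2, against 6.63, 8.16 and 8.59 FPKM in WT E2 (-1.41, adjusted p 0.0426). WT E2 libraries were above KIKO E2 libraries throughout, but the Lamb1 call was lost with any 1 library left out (0.0961 to 0.181). Accn4, an acid-sensing ion channel subunit, was at 0.892, 1.55 and 1.18 FPKM in KIKO E2, against 4.39, 5.93 and 4.65 FPKM in WT E2 (-1.44, adjusted p 8.64e-05). Accn1, of the same channel family, had a log2 difference of -0.54 (adjusted p 0.0256), lost without KIKO E2 1 (0.105), KIKO E2 2 (0.172), WT E2 1 (0.0977) or WT E2 2 (0.165).

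Mycn, a relative of Myc, was at 3.54, 3.23 and 3.08 FPKM in KIKO E2, against 6.15, 8.94 and 6.43 FPKM in WT E2 (-0.92, adjusted p 0.00755, and 0.0567 without WT E2 2). Nop56, a component of the small nucleolar particles that modify ribosomal RNA, was at 45.6, 48.8 and 49.5 FPKM in KIKO E2, against 66.6, 70.2 and 71.4 FPKM in WT E2 (-0.52, adjusted p 0.0182, and 0.0508 to 0.103 with any 1 library left out). Crabp1, a binding protein of retinoic acid, was at 91.8, 83.7 and 127 FPKM in KIKO E2, against 236, 281 and 218 FPKM in WT E2 (-1.29, adjusted p 0.00653, and 0.0529 without KIKO E2 2 and 0.0549 without WT E2 2). Inhbb, the βB subunit of activins and inhibins, was at 4.29, 3.36 and 2.70 FPKM in KIKO E2, against 7.20, 11.2 and 7.08 FPKM in WT E2 (-1.08, adjusted p 0.0109), lost without KIKO E2 2 (0.0578), KIKO E2 3 (0.0709) or WT E2 2 (0.0766). None of these genes overlapped between the groups. Phf21b (-1.47, adjusted p 0.000619), Hs3st5 (-1.23, adjusted p 0.000178) and Tmem215 (-1.70, adjusted p 0.00114) were lower and passed with any 1 of the 6 libraries left out.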
